A study of Rattus norvegicus with 12 samples.

Results

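When a microRNA hairpin is cut by Dicer it leaves a short duplex, and usually one strand is kept by Argonaute as the guide while the other, the passenger strand, is discarded. In the naming used on this array the minor strand carries an asterisk and is called the star miRNA, and the row of the same name without the asterisk is called its partner here. Some star strands are loaded and act as guides themselves, and because their seed differs from that of the partner they pair with other messenger RNAs. The star miRNAs of the array were taken as the rat miRNA rows whose name ends in an asterisk, without those of the miR-675 and miR-483 hairpins. They numbered 238 of the 677 rat miRNAs, beside 437 rows without an asterisk.

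Soleus muscle, a slow postural muscle of the hind limb, was taken from 12 male Sprague-Dawley rats aged 1 year, and each rat was hybridised to its own 1-colour Agilent miRNA array. The 6 control offspring (rats C73, A110, C60, H10, A89 and A75) came from dams on standard chow, and the 6 HF offspring (rats C51, H3, H1, C25, H20 and A37) from dams on a diet rich in saturated fat and sucrose before mating, in pregnancy and while suckling. After weaning all offspring ate chow, so the groups differ by label in the diet of the dam, and the sources do not say which rats shared a litter. The study's text gives numbers of rats per group that differ from one another and in part from the labels. All rats labelled in the deposited data were used. Each of the 2 slides carried 3 control and 3 HF offspring, and p-values measure only the spread between these rats.

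The skeletal muscle markers miR-1, miR-133a, miR-133b and miR-206 were detected on all 12 arrays. Of 9 markers of liver or epithelium, miR-192 was detected on all arrays (median 47.4), miR-122 and miR-203 on 10, miR-194 on 8, miR-205 on 2, miR-200a and miR-200b on 1, and miR-141 and miR-200c on none. Of 5 brain markers, miR-128 (median 752) and miR-219-5p (41.7) were detected on all arrays, miR-9 on 1, and miR-124 and miR-137 on none. All 6 blood markers and all 3 vessel markers were detected on every array. HF rat H3 stood apart before any test. Its signal for miR-499, which is encoded within a slow myosin gene, was 366 against 5051 to 7994 in the other HF offspring, and miR-208b-3p, encoded in another slow myosin gene, was not detected in it. Other markers differed in H3 too. miR-206 (9354 against 30841 to 60699), miR-126, miR-143 and miR-145 were below the range of the other HF offspring. miR-1 (136123 against 51591 to 95300) and miR-133a were above that range, and miR-133b was inside it. For the 5 stars and 5 star pairs with the smallest unadjusted p, the change is given below with and without rat H3. The changes of the other stars and pairs include H3. In bulk muscle, fewer cells of a type and less RNA per cell cannot be told apart.

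The sequences below are shown because the results turn on them: both of the brightest stars with their partners, bright stars of a metabolic, a vessel and a widely expressed hairpin (miR-378*, miR-126* and miR-22*), miR-29a*, whose ratio to its partner differed between slides, the stars of duplicated hairpins that behaved differently, and miR-511*, seen in every rat without its partner. They are RefSeq mature sequences on the rat build GRCr8, 5′ to 3′, with the seed (bases 2 to 8) in capitals. The match of an asterisk name to an arm comes from miRNA nomenclature and not from the array files, and 34 of the 36 star miRNAs whose arm was certain had an entry.
miR-133a* (chr18:2157923-2157944, minus strand): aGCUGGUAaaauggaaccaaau
miR-133a, its partner: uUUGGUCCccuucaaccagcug
miR-133b (chr9:30594629-30594650, plus strand): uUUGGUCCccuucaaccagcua
miR-652* (chrX:111140088-111140110, plus strand): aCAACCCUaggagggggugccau
miR-652, its partner: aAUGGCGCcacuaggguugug
miR-378* (chr18:57128962-57128983, minus strand): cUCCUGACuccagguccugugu
miR-126* (chr3:29813182-29813202, plus strand): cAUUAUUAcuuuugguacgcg
miR-22* (chr10:60805349-60805370, plus strand): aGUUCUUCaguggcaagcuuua
miR-29a* (chr4:60618006-60618027, minus strand): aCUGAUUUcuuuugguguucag
miR-24-1* (chr17:1818710-1818731, minus strand): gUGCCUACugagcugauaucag
miR-24-2* (chr19:40859517-40859538, minus strand): gUGCCUACugagcugaaacagu
miR-30c-1* (chr5:139634467-139634488, minus strand): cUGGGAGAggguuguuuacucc
miR-30c-2* (chr9:33253735-33253756, plus strand): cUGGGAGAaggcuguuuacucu
miR-511* (chr17:82188001-82188021, plus strand): aAUGUGUAgcaaaagacagga

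Most star strands were not seen in this muscle. Of the 238, 187 (78.6%) were detected on no array, 51 (21.4%) on at least 1 array, 37 on at least 6 arrays and 26 (10.9%) on all 12. Of the 437 miRNAs without an asterisk, 135 (30.9%) were detected on all 12 arrays and 245 (56.1%) on none. The star signals that were present were also lower. Signals below are scaled to a common level between arrays and are in arbitrary intensity units, and a rat with no detection has no level. The median star among the 26 stood at 67.1 and the median of the 135 miRNAs without an asterisk at 317. Each row has its own probes, so a level set against that of another miRNA compares probe signals and is not a ratio of molecules.

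Both of the brightest stars stood far above the rest. miR-133a*, from a muscle-specific hairpin in the Mib1 gene span, ran from 3216 to 5472 with a median of 4226. miR-652*, whose hairpin lies within the span of Tmem164, ran from 2111 to 3692 with a median of 2737. These 2 rows held 32.9% to 41.2% and 21.3% to 30.3% of the summed star signal in each rat. Another 9 stars had medians between 100 and 1000. They were miR-378* (619), from the gene of the mitochondrial coactivator Ppargc1b, miR-30e* (546), miR-30a* (520), miR-22* (395), miR-29c* (370), miR-126* (359), from the endothelial gene Egfl7, miR-140* (270), miR-24-2* (173) and miR-770* (126).

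A further 10 had medians between 20 and 100. miR-511*, from the gene of the macrophage mannose receptor Mrc1, stood at 70.6, miR-30c-2* at 69.4, miR-362* at 64.9, miR-551b* at 63.5, miR-296* at 56.8 and miR-208*, from the cardiac myosin gene Myh6, at 41.8. miR-202* followed at 39.8, miR-99a* at 34.4, miR-29a* at 29.1 and miR-322* at 21.2. The dimmest 5 were miR-191* (18.1), let-7a-1* (16.3), miR-338* (15.4), let-7d* (11.3) and miR-7a-1* (9.47). Neighbours in this order overlapped in their ranges over the rats except miR-652* and miR-378*, whose highest value was 914. The scanner software's own error was 6.87% of the signal for miR-24-2* and 16.9% for let-7d*, the extremes among the 26.

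**Figure D1:**
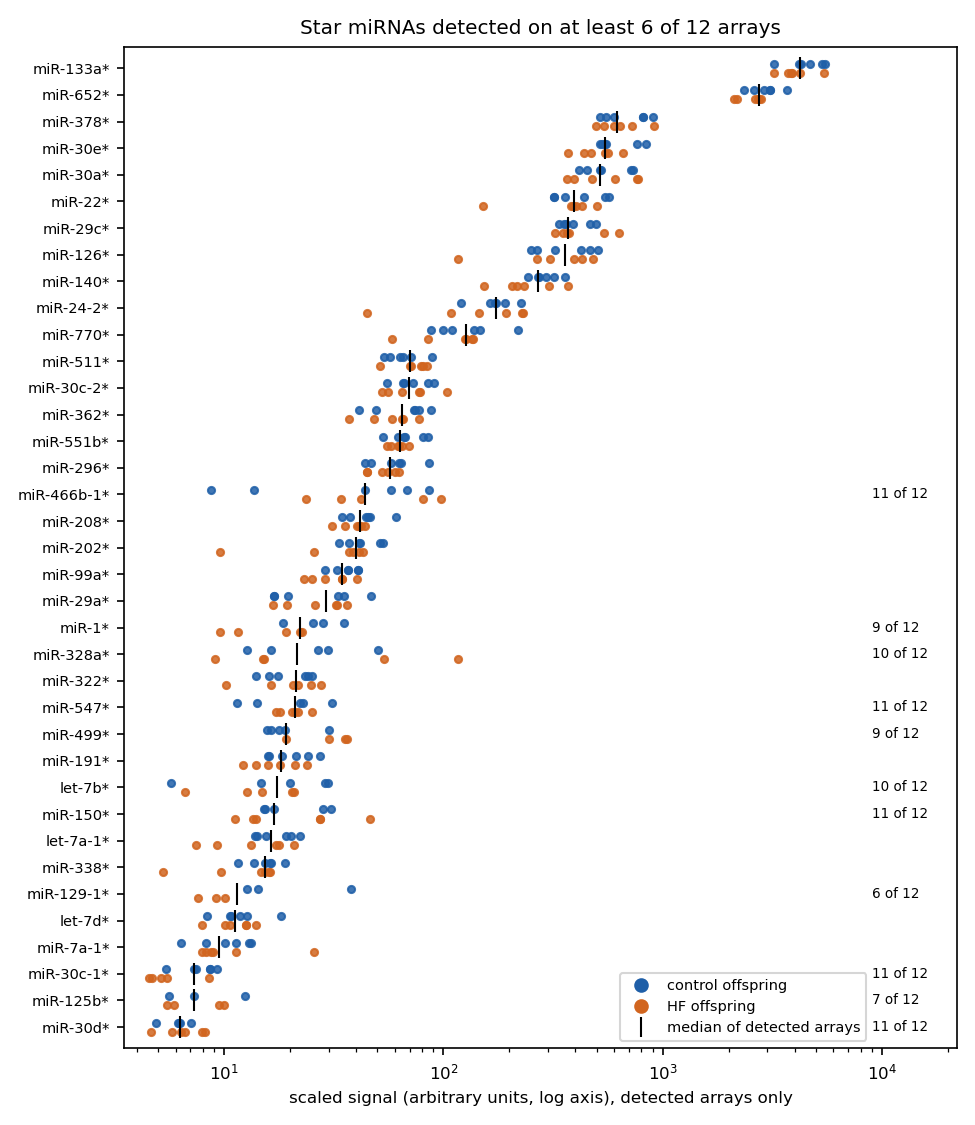
Scaled signal of each of the 37 star miRNAs detected on at least 6 arrays (log axis), with 1 point per rat in which it was detected, blue for control and orange for HF offspring, and a bar at the median of the detected arrays. Counts at the right give the arrays with a detection where fewer than 12. miR-133a* and miR-652* reach at least 2111 in every rat and the other 35 at most 914, and the colours overlap in both of these rows.

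The other 11 stars detected on at least 6 arrays were dim. miR-466b-1*, miR-547*, miR-150*, miR-30c-1* and miR-30d* were detected on 11 arrays, let-7b* and miR-328a* on 10, miR-1* and miR-499* on 9, miR-125b* on 7 and miR-129-1* on 6. Their medians where detected ran from 6.26 for miR-30d* to 43.9 for miR-466b-1*. A last 14 were seen on 1 to 5 arrays: miR-423*, miR-582* and miR-101a* on 5, miR-211* and miR-144* on 4, miR-411*, miR-136*, miR-455* and miR-143* on 2, and miR-129-2*, miR-190*, miR-133b*, let-7c-1* and miR-193* on 1. For these 25 the number of control and HF offspring with a detection gave an unadjusted p of 0.455 or more in Fisher's exact two-sided test (n = 6 per group).

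By hairpin group, all 5 miR-30 stars passed the limit of 6 arrays. Of the 6 stars of muscle hairpins, 5 were detected on at least 1 array (miR-133a*, miR-208*, miR-1*, miR-499* and miR-133b*) and the remaining one, miR-206*, on none. Of 9 let-7 and miR-98 stars 4 were detected, of 4 miR-29 stars 2, of 5 vessel stars 2 and of 4 blood stars 2. No star was detected on any array from the 11 of the proliferation-linked miR-17 and miR-106b clusters, the 8 of liver or epithelial hairpins, the 6 of miR-181, the 4 of miR-15 and miR-16, the 4 of miR-10 and miR-196, the 3 of miR-34 and the 2 of miR-26.

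A bright partner did not imply a detected star. A partner row was listed for 203 stars. Where the partner was detected on all 12 arrays (85 stars), the star was detected on at least 1 array for 25 (29.4%), and where the partner was detected on none (86 stars) the star was detected for 13 (15.1%). In the class between, with the partner on 1 to 11 arrays (32 stars), it was detected for 3 (9.38%), so the share did not follow the order of these classes. The muscle miRNA miR-206 had a median of 42374 and its star was not detected on any array. The same held for miR-23a* (partner 15261), miR-26a* (12995), miR-27a* (11823), miR-23b* (7448), miR-27b* (5810), let-7i* (4860), miR-21* (4849), miR-195* (4816), miR-16* (4576), miR-26b* (4510) and miR-497* (2729). The reverse pattern was seen for 8 stars detected in every rat while the partner was detected in none: miR-770*, miR-511*, miR-362*, miR-551b*, miR-296*, miR-208*, miR-202* and miR-191*. miR-511* was between 51.5 and 88.4 in the 12 rats, and miR-208* between 31.0 and 60.7. The study lists miR-511 among its rat miRNAs lower in HF offspring, yet the row of that name was detected on no array here. Whether the probes of these 8 partner rows work was not tested, so a missing partner signal need not mean a missing strand.

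Among the 14 pairs with both strands on all 12 arrays, the star was above its partner in every rat in 2. The miR-652* signal was 10.7 to 22.1 times that of miR-652 (median 17.9). The miR-133a* signal was 1.31 to 3.11 times that of miR-133a (median 2.11). For the latter the partner row is uncertain, since miR-133a and miR-133b are identical over their first 21 of 22 bases as printed above and whether their probes share targets was not tested. The miR-133b star, miR-133b*, was detected in 1 rat only, at 6.64.

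In the other 12 pairs the star was below the partner in every rat. The median ratio was 63.6% for miR-140*, 38.7% for miR-378* and 11.8% for miR-30e*. It lay between 1% and 10% for 7 pairs: miR-30a* (8.14%), miR-126* (7.46%), miR-338* (4.55%), miR-29c* (3.07%), miR-322* (1.97%), miR-22* (1.92%) and miR-99a* (1.36%). The lowest were let-7d* at 0.232% and miR-29a* at 0.172%. Within a hairpin the ratio was steadier than the star itself in some pairs and not in others. Its SD over the 12 rats on the log2 scale was smaller than that of the star in 8 of the 14 pairs, for example 0.15 against 0.39 for miR-30a* and 0.17 against 0.33 for miR-30e*. In the remaining pairs it was larger. These were miR-338* (0.74 for the ratio and 0.50 for the star), miR-652* (0.34 and 0.23), miR-133a* (0.37 and 0.27), let-7d* (0.41 and 0.32), miR-29a* (0.56 and 0.52) and miR-22* (0.54 and 0.50).

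The ratio differed between the slides with no overlap for 3 of the 14 star pairs on all arrays. Ratios of other arm pairs were not compared between the slides, so no share over all pairs stands beside this count. miR-126* was at 5.26% to 6.31% of miR-126 on slide 1 and 8.61% to 10.2% on slide 2. miR-22* was at 0.720% to 1.66% and 2.19% to 2.57% of miR-22, and miR-29a* at 0.101% to 0.138% and 0.205% to 0.286% of miR-29a. Of the 14 partner signals none was without overlap between the slides. Of the 26 star signals 3 were (let-7a-1*, miR-126* and miR-29a*, each higher on slide 2), beside 7 of all 162 miRNAs on all arrays (4.32%). Each slide held 3 rats of each diet, and what else differed between the slides was not tested.

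**Figure D2:**
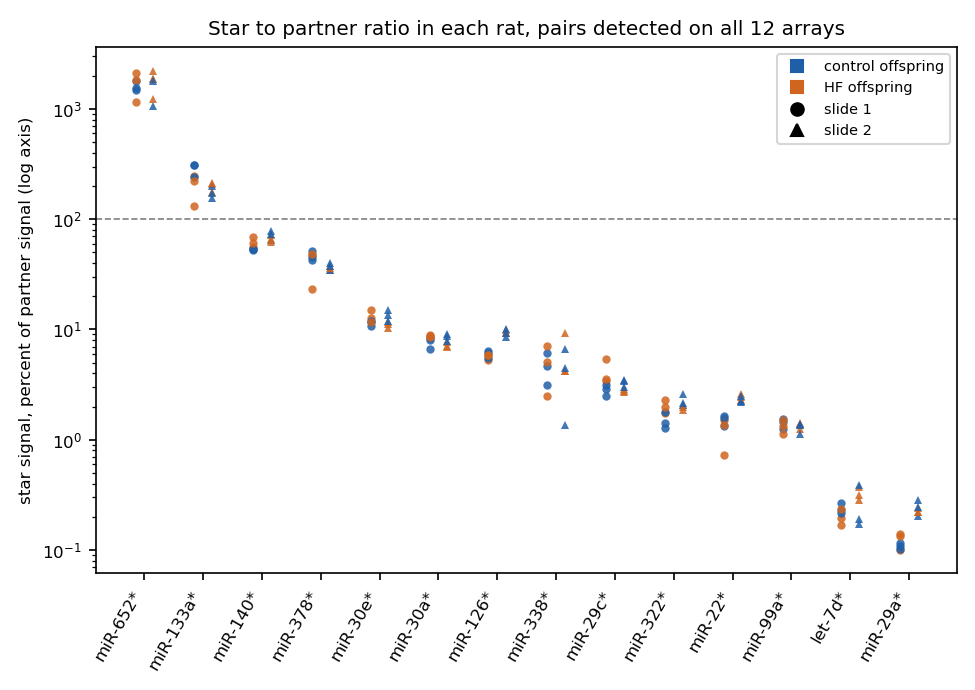
Star signal as a percentage of its partner's signal (log axis) for the 14 pairs detected on all 12 arrays, with 1 point per rat. Colour gives the diet of the dam and shape the slide, and the dashed line marks equal signals. Both pairs above the line are miR-652* and miR-133a*, and the circles and triangles of miR-126*, miR-22* and miR-29a* do not overlap.

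Duplicated hairpins give the same mature partner but star strands that can differ in sequence. Of 16 such hairpins with both star rows listed, neither star was detected for 11, only 1 of the copies for 3 and both for 2. miR-24 was detected on all arrays (median 9058). Its 2 stars share their first 16 of 22 bases and so their seed, yet miR-24-2* was detected in every rat (45.0 to 231) and miR-24-1* in none. miR-7a-1* was detected in every rat and miR-7a-2* in none. miR-30c-2* had a median of 69.4 and miR-30c-1*, which differs from it at 3 of 22 bases outside the seed, had a median of 7.27 where detected. miR-466b-1* was detected on 11 arrays and miR-466b-2* on none, and miR-129-1* and miR-129-2* on 6 and 1. The RefSeq sequence of miR-129-1* (19 bases) is the start of that of miR-129-2* (22 bases). Whether the probes of these 2 rows share targets was not tested, nor was it for the stars of miR-24 and of miR-30c.

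For 26 stars on at least 6 arrays a mature sequence was found, 12 on the 5p and 14 on the 3p arm of the hairpin. For 25 the partner sequence was found too. A guide strand often starts with U. The partner began with U in 14 of these 25 pairs and the star in 2 (miR-140* and miR-29c*). The stars began with A in 10, C in 8 and G in 5. The median GC content was 47.8% for stars and 45.5% for partners. Among detected stars with a sequence, let-7a-1* shared its seed with let-7b*, miR-30c-1* with miR-30c-2* and miR-129-1* with miR-129-2*.

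The design then asks whether the diet of the dam altered the star strands. The number of star miRNAs detected was 37.8 ± 5.31 in control and 37.8 ± 2.93 in HF offspring (mean ± SD, n = 6 each), ranging from 31 to 46 and from 35 to 43 (exact two-sided permutation test, p = 1). The star share of the summed signal was 2.35% ± 0.132 in control and 2.28% ± 0.152 in HF offspring (n = 6 each), a difference of -0.0749 percentage points (exact two-sided permutation test, p = 0.361, and within slides p = 0.39). The difference was -0.209 on slide 1 and 0.0591 on slide 2.

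None of the 37 stars tested passed an adjusted p of 0.05 in limma. The smallest adjusted p was 0.685, and of all 193 miRNAs tested none passed either (0%). At an unadjusted p under 0.05 in limma 1 star was lower in HF offspring and none higher, beside 2 of all 193 miRNAs lower (1.04%). The log2 changes of the 37 stars ran from -0.55 (miR-129-1*) to 0.41 (miR-547*), with SE from 0.14 to 0.74. Their median was -0.16 and 27 of 37 were negative. The median of all 193 was -0.17 with 154 negative, and 18 of the stars lay below it and 19 above, so the signs of the stars carry this common shift. With unscaled signals the medians were 0.15 for stars and 0.14 for all, and 32 of 37 stars were positive. The 95% interval of the change lay within 1 log2 unit on both sides for 27 of the 37.

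The smallest unadjusted p was that of miR-30c-1*, a very dim star. It was at 9.26, 8.60, 7.41, 5.43, 7.27 and 8.58 in control rats C73, A110, C60, H10, A89 and A75. In HF rats C51, H3, H1, C25 and A37 it was at 5.16, 4.52, 8.49, 5.50 and 4.68, and it was not detected in H20. HF rats except H1 sat at the bottom of the range and the groups overlapped. With values under the floor of 5.17 set to the floor, as in all means and fits here, the means were 7.76 ± 1.37 and 5.77 ± 1.34 (SD, n = 6). The log2 change was -0.43 (SE 0.17, unadjusted p = 0.0264 and adjusted p = 0.685 in limma), 0.26 below the median of all miRNAs. The limma p rose above 0.05 in 12 of 25 alternatives, among them all 4 other ways of scaling, where the change was -0.38 to -0.20. The exact permutation test gave p = 0.0346, and the changes on the slides were -0.46 and -0.40. Without rat H3 the log2 change was -0.40. The scanner error of this row was 21.8% of its signal.

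The next 4 stars did not pass an unadjusted p of 0.05. miR-30e* ran from 516 to 837 (median 551) in control and from 369 to 662 (median 507) in HF offspring, with a log2 change of -0.30 (SE 0.18, limma adjusted p = 0.685). miR-202* ran from 33.2 to 53.1 (median 41.3) and from 9.54 to 42.8 (median 37.9), a change of -0.54 (SE 0.33). Its lowest value was that of rat H3, and without H3 the change was -0.21. For the other 3 it was then -0.21 for miR-30e*, -0.17 for miR-652* and -0.16 for miR-140*. miR-652* ran from 2341 to 3692 (median 2996) and from 2111 to 2817 (median 2688), a change of -0.21 (SE 0.14). miR-140*, from a hairpin in Wwp2 best known in cartilage, ran from 242 to 359 (median 283) and from 153 to 371 (median 224), a change of -0.29 (SE 0.20). The groups overlapped in all 4, and their exact two-sided permutation p lay between 0.113 and 0.177 (n = 6 per group).

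**Figure D3:**
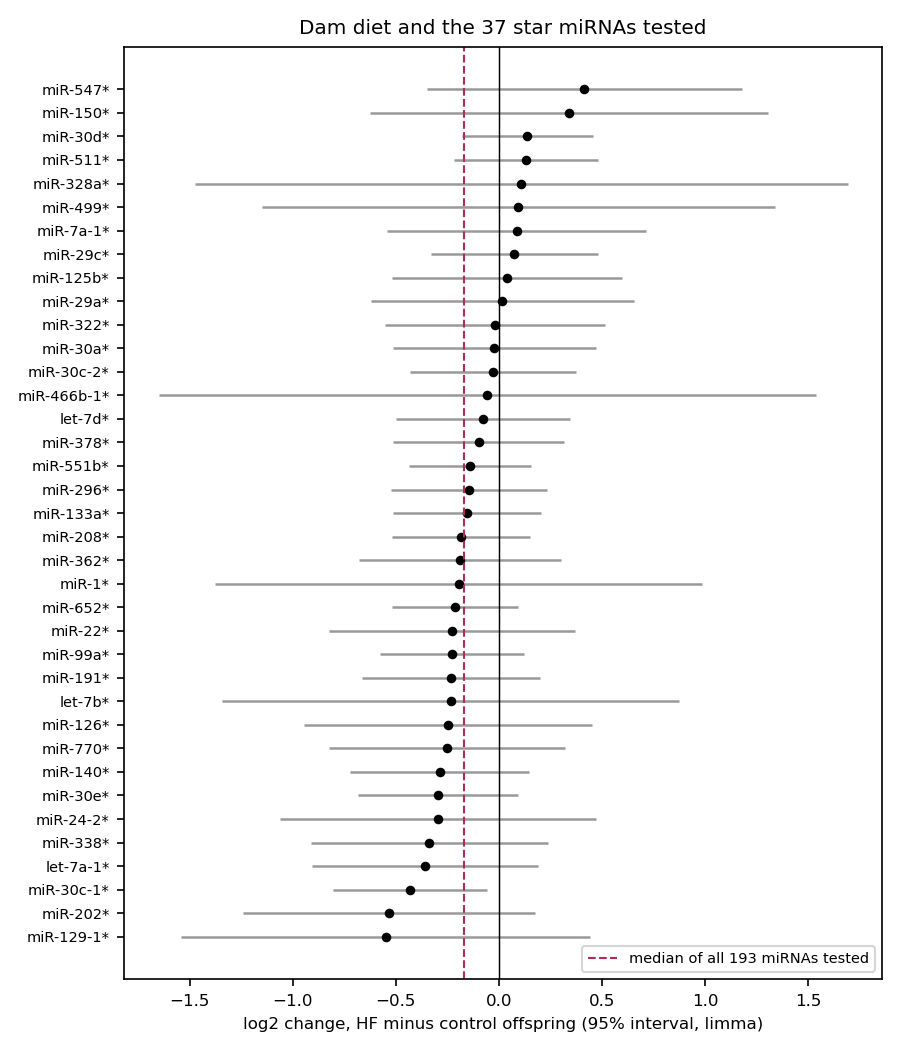
Log2 change of the 37 star miRNAs tested, HF minus control offspring, as points with the 95% interval of the limma fit. The dashed line is the median change of all 193 miRNAs tested (-0.17), and only the interval of miR-30c-1* leaves out 0.

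The ratio to the partner showed no call. Where both strands are detected it does not depend on how arrays are scaled, but a star at the floor brings the scaling in. Of 26 arm pairs tested 20 were star pairs, and none passed an adjusted p of 0.05 in limma (0% of all 26, smallest adjusted p 0.912) or an unadjusted one. The changes of the 20 ran from -0.23 to 0.75 on the log2 scale with a median of 0.08, and 12 were positive. The largest was miR-499*, the star of the slow-fibre miRNA, at 0.75 (SE 0.60, 95% interval -0.56 to 2.06, limma adjusted p = 0.912). It rests on floored values in rats C51, H3 and H10, and was 0.41 with the floor 4 times lower and 0.92 with it 4 times higher. miR-499* was detected at 15.7 to 30.2 in 5 control and at 19.2 to 36.3 in 4 HF offspring, and the detected groups overlapped. The other 4 with the smallest p were miR-378* at -0.17 (SE 0.18), miR-150* at 0.52 (SE 0.56), miR-133a* at -0.19 (SE 0.21) and miR-30d* at 0.16 (SE 0.19). With the floor 4 times lower miR-150* was at 0.86 and miR-30d* at 0.48, and with it 4 times higher at 0.34 and 0.03. For miR-378* the ratio ran from 34.5% to 51.2% in control and from 23.4% to 48.2% in HF offspring, and for miR-133a* from 156% to 311% and from 131% to 245%. Without rat H3 the change of the ratio was 0.39 for miR-499*, 0.12 for miR-150*, -0.08 for miR-133a*, -0.04 for miR-378* and 0.26 for miR-30d*, and again no star and no star pair passed an adjusted p of 0.05 in limma. The 95% interval lay within 1 log2 unit for 14 of the 20 pairs.

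Single rats stood out. Rat H3 had the lowest signal of all 12 rats for 11 of the 26 stars on all arrays, C25 for 6 and every other rat for 3 or fewer. Rat C73 had the highest for 8. The same counts were not made over all 162 miRNAs found on all arrays, so they are not results particular to stars. In H3, miR-126* was at 117 against 268 to 480 in the other HF offspring and its partner miR-126 at 2004 against 3951 to 5239, so both strands were low. miR-140* was at 153 against 206 to 371, and miR-140 at 221 against 333 to 513. miR-30e* was at 369 against 438 to 662, and miR-30e at 2444 against 3752 to 5655. miR-322* was at 10.2 against 16.4 to 27.7, and miR-338* at 5.26, close to the floor, against 9.67 to 16.1. Their partners were lowest of all rats in H3 too, miR-322 at 445 and miR-338 at 103. miR-22* was at 151 against 381 to 503, while miR-22, at 20969, lay inside the range of the others, 16616 to 29572. miR-29c* was at 631 against 324 to 539 with miR-29c inside its range. miR-499* was not detected in H3, and miR-208* was at 35.7, inside the 31.0 to 43.9 of the other HF offspring.

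**Figure D4:**
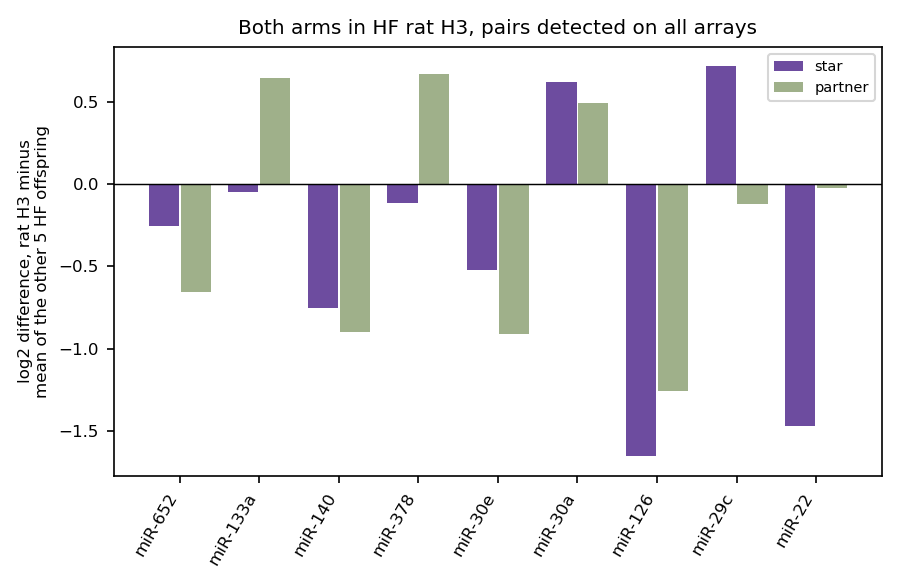
Log2 difference between HF rat H3 and the mean of the other 5 HF offspring, for the star (purple) and its partner (green). The 9 pairs drawn are among the 14 detected on all arrays. Of those drawn, both strands are below every other HF rat for miR-126, miR-140 and miR-30e. For miR-22 the difference is -1.47 for the star and -0.02 for the partner. The pairs of miR-322 and miR-338, also low on both strands in H3, are not drawn.

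Some stars were high in H3. miR-211*, from the gene Trpm1, was at 90.3 in H3 and between 7.59 and 22.9 in the 3 other rats with a detection. miR-328a* was at 117 in H3 and between 9.08 and 53.5 in the 9 others. Of the blood-cell hairpins, miR-144* was at 32.7 in H3 and between 13.6 and 14.1 in 3 other rats, and miR-150* at 46.3 against 11.2 to 30.7 in the 10 others with a detection. The partners did not move alike in H3: miR-150 was the lowest of all rats, at 304 against 503 to 790 in the other HF and 540 to 765 in the control offspring, while miR-144 was at 241, above the 41.5 to 207 of the other HF offspring and within the 61.6 to 273 of the controls. miR-328a was at 53.2, inside the range of the others. The part of muscle or blood composition in these values was not tested.

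Control rat C73 carried a separate set. miR-136*, from the imprinted region that also holds Meg3, was at 41.8 in C73 and 9.07 in A89 and not detected in the other 10 rats, and miR-411*, from the same region, was at 49.1 and 8.10 in the same 2 rats. The partner miR-136 was highest in these rats too, at 194 and 42.7 against 8.10 to 31.7 in the other 9 rats with a detection. The ratio of the strands was 21.6% in C73 and 21.2% in A89. The partner miR-411 was not detected in any rat. miR-770*, whose hairpin lies in Meg3, was at 218 in C73 and between 58.5 and 147 in the other rats. In A89 it was at 87.5, so it was not raised in both rats.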

How the data were processed

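The authors deposited the scanner software's output for each array, which gives for every miRNA a total intensity, an error and whether it was detected. Background had been subtracted and spots combined, but arrays had not been normalized. An undetected miRNA is listed at 0.1. The software version is not given in the sources used here. The deposited value table of the series was used as an alternative.

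The 22 control rows were left out. Arrays were scaled by their own 75th percentile (864 to 1911 units, taken over the 162 miRNAs found on all 12) and brought back to signal units with the factor 1354. Values under 5.17, the median over arrays of the lowest detected signal, were set to that floor before log2. limma 3.58.1 in R 4.3.3 compared HF with control offspring over the 193 miRNAs on at least 6 arrays, and over 26 arm pairs, with Benjamini-Hochberg adjustment. Exact permutation tests used 924 assignments, 400 within slides. The number of arrays limits the precision. Alternatives covered the scaling, floor, detection limit, slide and label letter as blocks, array weights, leaving out each rat, the methods' t-test and the deposited table. In data simulated from the 193 miRNAs, 15.5% of the miRNAs changed by 0.5 log2 units and 75.3% of those changed by 1 were called, and 26.8% and 70.2% for the 26 arm ratios. Each simulated set changed 30 of the 193 miRNAs or 4 of the 26 ratios at once, with values drawn independently. After adjustment the share called depends on that number, so it is not the power for a single changed star.

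All stars detected on at least 1 array were named, and the 5 stars and 5 star pairs with the smallest unadjusted p were given in detail. Members and lists were chosen with earlier results of these data known. Rats H3 and C73, the slides and the duplicated hairpins were described after their values were seen. Human samples were not analysed here.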

Additional observations from a re-analysis of the deposited data

Results flagged for a closer look

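In 106 groups of 6 rats, 7 had 1 rat whose gap to its neighbour took up an unusually large part of the group's range, and chance gives about 1 in 20. Rat H3 was that rat in 3 of them. In HF offspring miR-22* was lowest in H3, at 151 against 381 to 503 in the others, miR-7a-1* was highest in H3, at 25.7 against 7.90 to 11.4, and miR-29c* was at 5.45% of miR-29c in H3 against 2.73% to 3.58%. Also in HF offspring, miR-30c-1* was highest in H1, at 8.49 against 5.17 to 5.50, where 5.17 is the floor. The star share of the summed signal was 2.58% in A37 against 2.17% to 2.25%. In control offspring miR-125b* was at 12.4 in A89 against 5.17 to 7.25 in the others, and miR-129-1* was at 37.9 in A110 against 5.17 to 14.2. For miR-30c-1*, miR-125b* and miR-129-1* several rats of the group were tied at the floor. Ties narrow the range, so the rate of about 1 in 20 does not hold for these. The only rat with a detection of miR-129-2*, whose sequence begins with that of miR-129-1*, was also A110, at 22.6.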

How the results depend on the processing

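No star and no star pair passed an adjusted p of 0.05 in limma under any alternative run: 25 planned for the signals and 20 for the ratios, each including the 12 that leave out 1 rat, and 2 for the signals chosen after the data were seen (undetected values kept at 0.1, and arrays centred on their median). Over the 12 settings that leave out a rat, the count stayed at 0 for both, the difference in stars detected ran from -1.37 to 1.63 and that in the star share from -0.136 to -0.0347 percentage points. Without the 4 brightest miRNAs in the sum, the difference in the star share turned to 0.0475. The number of stars with an unadjusted p under 0.05 was 1 in the comparison reported and ran from 0 to 2, with 2 when slide was a block, under array weights or without rat C25, and 0 without C73, C51, A110, H20 or A75. It was also 0 in 7 of the 15 other settings: the percentile over all miRNAs, no scaling, the floor 4 times higher, detection on all 12 arrays, label letter as a block, trend and robust fitting, and undetected values at 0.1. The methods' t-test gave 1 star under its threshold unadjusted and 0 after Benjamini-Hochberg. miR-30c-1* kept its negative sign in all 25 alternatives that hold it, from -1.44 with undetected values at 0.1 to -0.20 with arrays centred, but its unadjusted limma p was 0.05 or more in 12 of them, with 0.265 for the percentile over all miRNAs, 0.183 for quantile normalization, 0.323 without scaling and 0.238 with arrays centred. Without scaling the changes of miR-30e*, miR-652* and miR-140* turned to 0.0138, 0.0956 and 0.0213, and with arrays centred that of miR-652* to 0.0144. Unadjusted p under 0.05 was reached by miR-140* without rat C25 (-0.42, unadjusted p = 0.0399 in limma) and by the miR-499* ratio without C51 (1.15, unadjusted p = 0.0489 in limma). The alternative with partners matched by name without the copy number added pairs and no call. Another 14 stars, seen on 1 to 5 arrays, entered the limma fit only in the setting that took any detection, without a call. The replicate labels are rat names that pair no rats across the groups. No paired analysis was possible because the groups share no replicate numbers. The cause of the changes between settings was not tested.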
